A study of Mus musculus with 19 samples.

Results

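The genes described here are 7 ligands of the epidermal growth factor (EGF) family, Areg, Hbegf, Tgfa, Btc, Epgn, Ereg and Nrg1, which encode amphiregulin, heparin-binding EGF, transforming growth factor alpha, betacellulin, epigen, epiregulin and neuregulin 1. They were chosen by name from a list, with earlier results of these data known. They are 7 of the 24689 gene symbols in an RNAseq table of tongue epithelium. The table holds 19 mice, 8 to 16 weeks old by the methods of the study, and was made to compare epithelium with E6-E7, with active YAP and with both. The control group, N, has 5 mice. Of these, 3 carry Krt14-CreERT and LSL-rtTA, N mouse 4 carries LSL-rtTA without Cre, and N mouse 5 carries Krt14-CreERT, tetON_E6-E7 and tetON_YAP1S127A without rtTA. The E group has 5 mice with Krt14-CreERT, LSL-rtTA and tetON_E6-E7, whose products block p53 and RB. The Y group has 3 mice with Krt14-CreERT, LSL-rtTA and tetON_YAP1S127A, a YAP1 that escapes inhibition by the Hippo pathway. The EY group has 6 mice with both effector transgenes on the same drivers. By the methods, each group also carried the reporter tetON_H2B-GFP, had tamoxifen injected into the tongue and ate doxycycline, and the epithelium was taken 15 days after induction and freed from the muscle with collagenase and dispase. The Krt14 promoter puts the Cre in basal keratinocytes, while the RNA came from the whole epithelium. Between 8269674 and 11007304 reads per mouse lie behind the values, and the medians of the N, E, Y and EY groups were 9637779, 8848776, 8679053 and 9448942.

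EGF family ligands are made as membrane proteins, are cut loose by proteases such as ADAM17, and bind ERBB receptors on the same or on nearby cells. Areg, Tgfa and Epgn act through EGFR, Hbegf, Btc and Ereg through EGFR and ERBB4, and Nrg1 through ERBB3 and ERBB4, with ERBB2 as a partner that binds no ligand. In stratified epithelia these ligands drive keratinocyte growth, migration and repair, and several of them feed back on each other's expression.

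The values are transcripts per 1000000 (TPM), as deposited. The lengths behind them are those of whole genes with their introns. The length that the values imply was within 1% of the span from the first to the last base of the gene for 23353 of 23803 genes (98.1%), and within 1% of the summed exons for 152 (0.639%). This matters most for Nrg1, whose span of 1069479 bases is 103 times its 10351 bases of exons, and least for Hbegf, at 2.25 times. Deposited TPM are therefore used here for differences of 1 gene between mice. Levels of different genes are compared only as TPM per exon length, recomputed from the recovered reads of the 23811 genes with known exons.

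The labels were checked first. Against N, 4 of 5 YAP target genes were called higher in EY epithelium, where 12.6% of all genes were. After median-of-ratios scaling 3 were, where 1540 of 22745 genes were. With active YAP alone 3 were called higher, where 3.47% of all genes were. With E6-E7 alone limma called 0 and had 0 at an unadjusted p below 0.05, where 1.2% and 14.8% of all genes were. The log2 fold change of Axl was 2.26 in EY and 1.84 in Y, and that of Amotl2 was 2.06 and 1.75. Of 5 genes listed beforehand to check the E6-E7 label, limma called 3 as higher in EY, where 12.6% of all genes were. It called 1 higher with active YAP alone, where 3.47% of all genes were. With E6-E7 alone it called 1 higher, where 1.2% of all genes were called in either direction. Ccne1 was called higher in each of E (2.33), Y (1.46) and EY (2.94). Cdkn2a, at a mean of 0.0457 TPM in N, was called higher in EY (1.88, adjusted p = 0.00390, 0.00117 to 0.0342 over the fits) and not in E (2.01, adjusted p = 0.0311). The EY call was lost without N mouse 2 (1.77, adjusted p = 0.0114), N mouse 4 (1.77, 0.0122) or EY mouse 1 (1.73, 0.0104), with 1 TPM added (0.49, 0.0159), with only the 3 N mice of the same genotype (1.71, 0.0342), with only the groups compared (1.88, 0.0123) and, chosen after seeing the data, without N mice 2 and 3 (1.72, 0.0296). The list also held Cdkn1a and Mdm2, which p53 induces, so a rise of these would not mark a block of p53. Neither was called, Mdm2 was under the fold limit in EY (0.73, adjusted p = 5.35e-05), and Cdkn1a had a mean of 178 TPM for N, 236 for E and 142 for EY mice. Basal and differentiating keratinocyte markers were present in each mouse, led by Krt14 and by Krt13. The log2 fold change of mouse Yap1 in EY was 0.12 (adjusted p = 0.424), which became -0.25 after median-of-ratios scaling, and the transgenes have no row of their own.

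The 22745 genes that reached 0.1 TPM in 3 mice or more were tested with limma, and a call needed both a Benjamini-Hochberg adjusted p under 0.01 and a log2 fold change beyond 1 in either direction. All 7 ligands passed this filter. In EY epithelium, Hbegf, Epgn and Nrg1 rose against N and Btc fell. These are 3 of 7 ligands called higher, where 12.6% of all genes were, and 1 of 7 called lower, where 5.71% were, or 4 of 7 in all against 18.3%. Because the ligands were listed with earlier results of these data known, such counts describe them here and in the other comparisons. They are no test of the family against all genes. Areg, Tgfa and Ereg were not called. The median log2 fold change was 0.57 over the 7 ligands and 0.33 over all genes. Median-of-ratios scaling, which sets each mouse by its typical gene, brought the median of all genes to 0.01, and values after it are given as relative to this shift. After scaling 1 ligand (Nrg1) was called higher and 2 (Btc and Ereg) lower, with 15.4% of all genes called, 1540 higher and 1972 lower in place of 2858 and 1299. The counts of genes higher and lower moved also from 790 and 252 to 524 and 392 for Y against N, from 1779 and 1135 to 1000 and 1572 for EY against E, from 243 and 211 to 123 and 283 for EY against Y and from 380 and 183 to 304 and 238 for Y against E. Per exon length the ligands called were Hbegf, Epgn, Nrg1 and Btc, 4 of 7 against 18.1% of 23357 genes. No ligand changed its direction between EY and N in any of the fits. Where mice of different groups do not overlap below, this only describes those mice. The share of all genes without such overlap was not computed, and by limma 48.6% of all genes had an unadjusted p below 0.05 between EY and N. In a whole tissue, fewer cells that make a transcript and less of it per cell cannot be told apart.

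**Figure D1:**
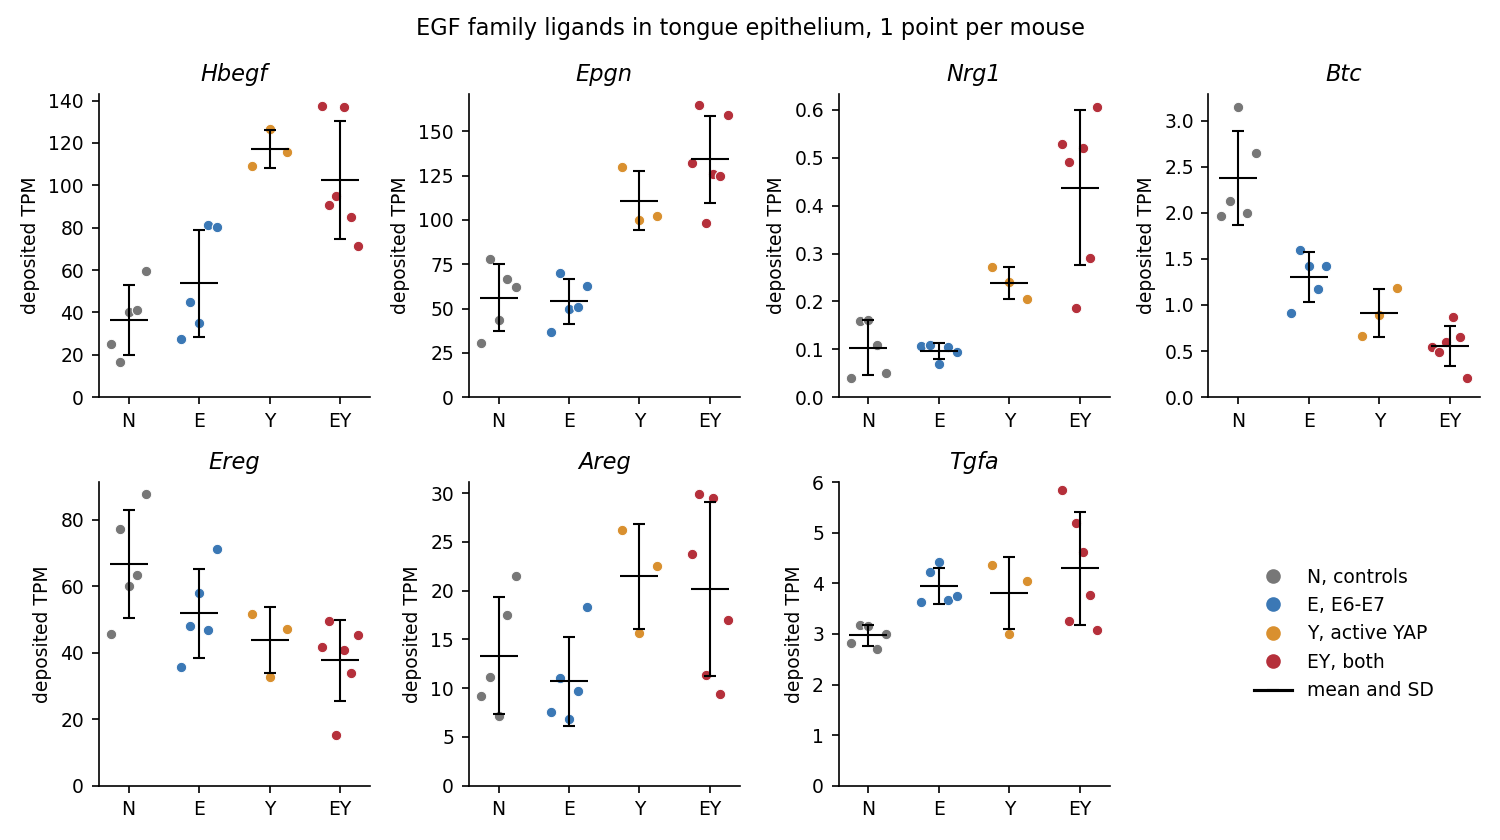
Deposited TPM of the 7 ligands, with 1 point per mouse (N and E n = 5, Y n = 3, EY n = 6) and the mean and SD in black. Each EY mouse lies above each N mouse for Hbegf, Epgn and Nrg1 and below each N mouse for Btc. The share of all genes without such overlap was not computed.

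Of the ligands that act through EGFR, Epgn was at 30.7, 78.01, 43.5, 66.4 and 62.0 TPM in the 5 N mice. The 5 E mice were at 37.0, 69.8, 49.9, 51.1 and 62.4 TPM and the 3 Y mice at 130, 100 and 102 TPM. The 6 EY mice ranged from 98.5 to 165 TPM with a median of 129. The E mice lay within the range of N, and each Y and each EY mouse stood above the highest N mouse, N mouse 2. The N mean was 56.1 ± 18.9 TPM (SD, n = 5) and rose in EY to 134 ± 24.4 (n = 6), a log2 fold change of 1.31 (adjusted p = 9.34e-05, standard error 0.22, higher in 6 of 6 mice). Relative to the shift of all genes the log2 fold change of Epgn in EY was 0.93, under the limit of 1, with an adjusted p of 0.00278 (4.46e-05 to 0.00278 over the 32 fits). This was the setting at which the call was lost. In Y, Epgn had a log2 fold change of 1.04 (adjusted p = 0.0108, higher in 3 of 3 mice) and just missed the call. It was called there without N mouse 2 (1.18, adjusted p = 0.00516) and without E mouse 1 (1.04, adjusted p = 0.00836). It was also called with the filter at 1 TPM (1.04, 0.00889) and with mouse number as a block (1.12, 0.00953), in a range of 0.00516 to 0.0689 over the fits.

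Areg was at 9.22, 11.1, 7.17, 17.5 and 21.5 TPM in N, at 7.503, 11.1, 6.87, 9.69 and 18.3 TPM in E and at 26.2, 15.6 and 22.5 TPM in Y. In EY it ranged from 9.39 to 29.9 TPM with a median of 20.4. The mice of each group were spread widely and the groups overlapped, with 3 of 6 EY mice above all N mice. Its log2 fold change against N was 0.57 in EY (adjusted p = 0.215) and 0.77 in Y (adjusted p = 0.257), and 0.20 and 0.57 after scaling. The 95% confidence interval in EY, -0.17 to 1.32, reaches past the fold limit, so these values leave room for a change of that size.

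Tgfa varied the least of the 7 ligands among the N mice, at 2.701 to 3.18 TPM, and among the E mice, at 3.64 to 4.42 TPM. Each E mouse stood above each N mouse, a log2 fold change of 0.39 (adjusted p = 0.263). In Y it was at 3.00 to 4.35 TPM and in EY at 3.09 to 5.85, with a log2 fold change of 0.48 in EY (adjusted p = 0.0217, 0.00744 to 0.618 over the fits, higher than all N mice in 5 of 6). Relative to the shift of all genes this EY value was 0.11.

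Of the ligands that act through EGFR and ERBB4, Hbegf was at 25.2, 16.6, 40.0, 41.3 and 59.4 TPM in the N mice and at 27.4, 45.0, 34.8, 81.2 and 80.2 TPM in the E mice. The Y mice were at 109, 127 and 116 TPM, and the EY mice ranged from 71.2 to 137 TPM with a median of 92.8. The Y and EY mice stood above all N mice, E mice 4 and 5 did so too, and the other E mice lay within the range of N. The mean was 36.5 ± 16.5 TPM (SD, n = 5) for N, 117 ± 8.89 (n = 3) for Y and 103 ± 27.8 (n = 6) for EY mice. In EY the log2 fold change was 1.58 (adjusted p = 0.000700, 95% interval 0.89 to 2.26, standard error 0.32, higher in 6 of 6 mice), which is 2.98-fold. Set against the shift of all genes, the value was 1.20 with an adjusted p of 0.0105, which missed the threshold, and this was the setting at which the call was lost (0.000313 to 0.0105 over the 32 fits).

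In Y epithelium Hbegf rose by a log2 fold change of 1.81 (adjusted p = 0.00413, standard error 0.39, higher in 3 of 3 mice). This call rests on few mice. It was lost without Y mouse 1 (1.86, adjusted p = 0.0138), without Y mouse 2 (1.75, 0.0196), without Y mouse 3 (1.81, 0.0205) and without N mouse 1 (1.71, 0.0102). It was also lost after scaling (1.61, adjusted p = 0.0164) and with only the mice of the groups compared (1.81, adjusted p = 0.0256). It was lost too in the settings chosen after seeing the data, without N mice 2 and 3 (1.56, 0.0160) and without N mouse 1 and EY mouse 3 (1.71, 0.0135), and over the 32 fits the adjusted p ranged from 0.00139 to 0.0256.

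Btc was at 1.97, 2.13, 3.15, 2.00 and 2.64 TPM in N, at 0.910, 1.60, 1.43, 1.17 and 1.43 TPM in E and at 0.662, 0.889 and 1.19 TPM in Y. In EY it ranged from 0.207 to 0.870 TPM with a median of 0.569. Every E, Y and EY mouse stood below every N mouse, and every EY mouse below every E mouse, with EY mouse 6 the lowest of the 19. The group means of N, E, Y and EY were 2.38 ± 0.509 TPM (SD, n = 5), 1.31 ± 0.270 (n = 5), 0.912 ± 0.262 (n = 3) and 0.559 ± 0.217 (n = 6). In EY the log2 fold change was -1.97 (adjusted p = 9.84e-06, standard error 0.26, lower in 6 of 6 mice) and -2.30 relative to the shift of all genes. The call held in 32 of 32 fits, with adjusted p from 2.24e-07 to 0.000312. Between 158 and 225 reads lay behind a value in N and between 16 and 62 in EY, so the EY values carry the larger counting error.

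In Y epithelium the fall of Btc lay at the edge of the threshold, with a log2 fold change of -1.30 (adjusted p = 0.00902, standard error 0.32, lower in 3 of 3 mice). It was called in 9 of 32 fits, and the adjusted p ranged from 0.00139 to 0.0530. The call was lost without any 1 of the 5 N mice, for which the adjusted p ran from 0.0120 without N mouse 1 to 0.0219 without N mouse 3. It was lost without Y mouse 1 (-1.11, adjusted p = 0.0530), Y mouse 2 (-1.30, 0.0306) or Y mouse 3 (-1.49, 0.0160). It was lost as well without E mouse 2, 3, 4 or 5 and without EY mouse 1, 2, 3 or 5, which leave the fold change as it is and move the adjusted p to between 0.0108 and 0.0125. In E the log2 fold change of Btc was -0.82 (adjusted p = 0.131, lower in 5 of 5 mice).

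Ereg was at 45.5, 77.1, 60.2, 63.5 and 87.8 TPM in N, at 35.6, 47.9, 58.1, 46.8 and 71.1 TPM in E and at 51.7, 32.7 and 47.1 TPM in Y. In EY it ranged from 15.1 to 49.6 TPM with a median of 41.2. N mouse 1 was the lowest control, EY mouse 3 was the lowest of all, and 5 of 6 EY mice lay below every N mouse. The log2 fold change of Ereg in EY was -0.88 (adjusted p = 0.0135, standard error 0.27) and did not pass either limit. It did so without N mouse 1 (-1.01, adjusted p = 0.00827), relative to the shift of all genes (-1.26, adjusted p = 0.00146) and with limma voom on the recovered reads (-1.04, adjusted p = 0.000906). Over the 32 fits the adjusted p ran from 0.000906 to 0.0875.

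Nrg1, the ligand of ERBB3 and ERBB4, was at 0.0394, 0.159, 0.161, 0.108 and 0.0503 deposited TPM in N, at 0.106, 0.109, 0.0690, 0.105 and 0.0937 in E and at 0.272, 0.2398 and 0.204 in Y. In EY it ranged from 0.185 to 0.606 with a median of 0.506. The E mice lay within the range of N, all Y and EY mice above it, and among the EY mice numbers 3 and 5 were low. In reads, which do not depend on a length, the N mice had 74 to 291, the E mice 112 to 208, the Y mice 335 to 404 and the EY mice 290 to 1096. The log2 fold change in EY was 1.38 (adjusted p = 0.000281, standard error 0.26, higher in 6 of 6 mice) and 1.14 relative to the shift of all genes. With deposited values this low, the 0.1 TPM added before the logarithm pulls the difference toward 0. Per exon length the log2 fold change of Nrg1 in EY was 2.12 (adjusted p = 7.05e-05, standard error 0.35), with a mean of 4.88 ± 2.71 (SD, n = 5) for N and of 20.04 ± 7.32 (n = 6) for EY. With limma voom on the reads it was 2.03 (adjusted p = 3.06e-05). With 1 TPM added it shrank to 0.37 and the call was lost, although the adjusted p was 0.000275 (3.06e-05 to 0.00480 over the 31 fits that include Nrg1). In Y, where the call failed in each fit, the log2 fold change was 0.78 from deposited TPM (adjusted p = 0.0999, higher in 3 of 3 mice) and 1.34 per exon length (adjusted p = 0.0396).

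**Figure D2:**
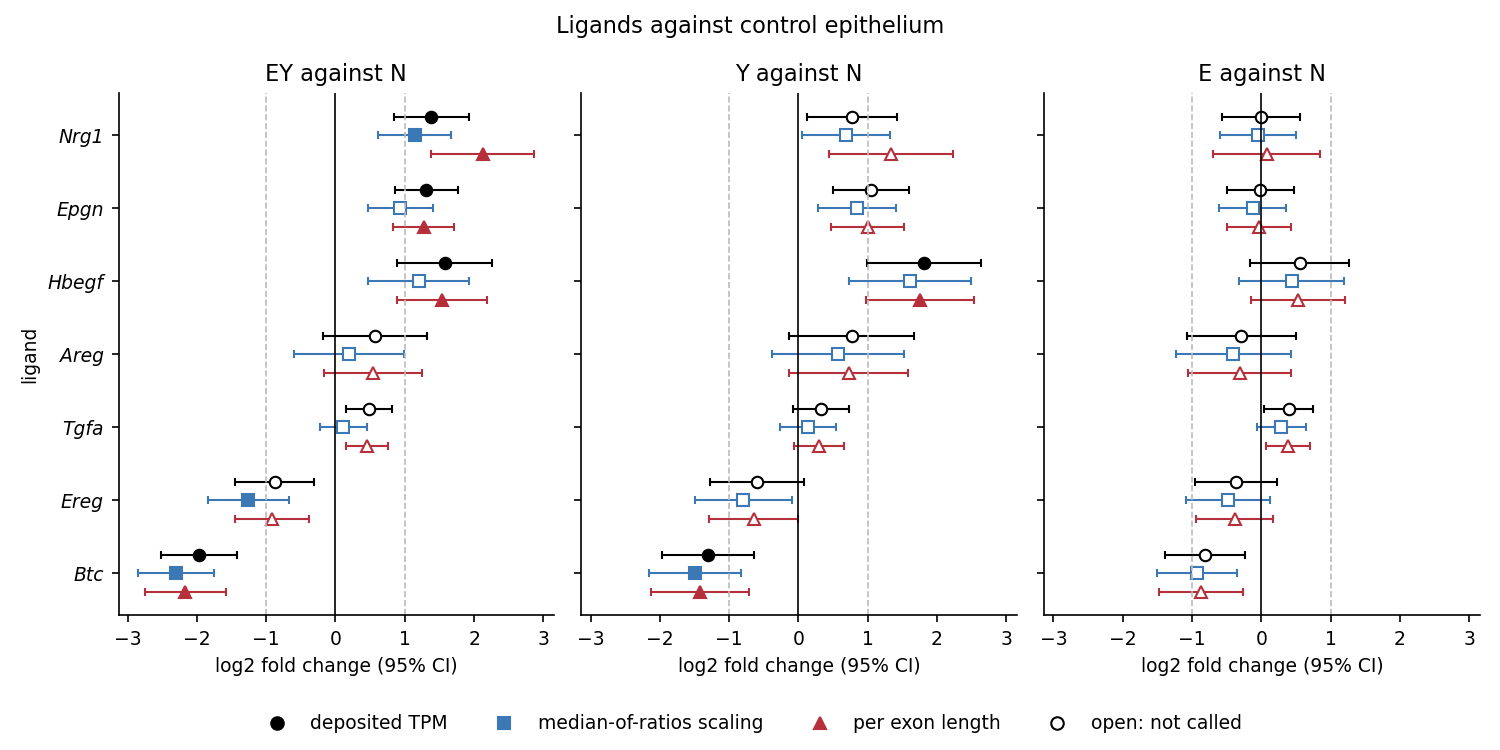
Log2 fold changes of the 7 ligands against N with 95% confidence intervals, for EY, Y and E, from deposited TPM, after median-of-ratios scaling and per exon length, with filled symbols for called values and dashed lines at the fold limit. Nrg1 moves furthest with the length used, from 1.38 to 2.12 in EY, and no ligand is called in E.

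The comparisons with N share the same 5 control mice, so their values are set side by side without a test of likeness. In Y epithelium 1 of 7 ligands (Hbegf) was called higher, against 3.47% of all genes, and 1 (Btc) lower, against 1.11%, or 2 of 7 where 4.58% of all genes were called. The median log2 fold change in Y was 0.77 over the ligands and 0.13 over all genes. In E epithelium 0 of 7 ligands were called by limma, against 1.2% of all genes. At an unadjusted p below 0.05 they were 2 (Btc and Tgfa), where 14.8% of all genes were, and limma voom also called 0 and had 2 at that level. The log2 fold changes in E of Epgn (-0.01) and Nrg1 (-0.01) lay near 0, with 95% intervals of -0.49 to 0.46 and -0.57 to 0.56. The values not given above were 0.33 for Tgfa and -0.60 for Ereg in Y, and -0.29 for Areg, 0.55 for Hbegf and -0.37 for Ereg in E.

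Adding active YAP to E6-E7, the comparison of EY with E, gave 2 ligands called higher, Epgn and Nrg1, where 7.82% of all genes were, and 1 lower, Btc, where 4.99% were. In all, 3 of 7 ligands were called against 12.8% of genes. The log2 fold changes were 1.32 for Epgn (adjusted p = 0.000117, higher in 6 of 6), 1.39 for Nrg1 (0.000360, higher in 6 of 6) and -1.15 for Btc (0.00213, lower in 6 of 6). The call of Btc was lost without EY mouse 6 (-0.95, adjusted p = 0.00269) and with only the groups compared (-1.15, 0.0116). It was also lost with mouse number as a block (-0.95, 0.00315) and with 1 TPM added (-0.57, 0.00197), in a range of 0.000285 to 0.0116 over the fits. With 1 TPM added Nrg1 lost the call here too (0.38, adjusted p = 0.000297). Hbegf had a log2 fold change of 1.03 (adjusted p = 0.0194) and was called without E mouse 4 (1.21, 0.00918) or E mouse 5 (1.20, 0.00992), the E mice with the highest Hbegf, in a range of 0.00918 to 0.105 over the fits. Relative to the shift of all genes the difference of Hbegf was 0.76. The others not called were Areg at 0.86 (adjusted p = 0.0689), Ereg at -0.51 (0.154) and Tgfa at 0.09, whose sign turned after scaling (-0.17).

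Adding E6-E7 to active YAP, the comparison of EY with Y, gave 0 of 7 ligands called by limma, where 2% of all genes were. At an unadjusted p below 0.05, which 23.9% of all genes met, there was 1 (Btc, -0.67, lower than all Y mice in 5 of 6), and limma voom called 0 and had 2 at that level. Nrg1 had a log2 fold change of 0.60 (95% interval -0.03 to 1.24), with 5 of 6 EY mice above all Y mice. The other ligands were at -0.19 for Areg, -0.23 for Hbegf, -0.28 for Ereg, 0.27 for Epgn and 0.15 for Tgfa, which became -0.02 after scaling. Between Y and E, limma and limma voom each called 0 of 7, against 2.48% of all genes by limma, and each had 4 at an unadjusted p below 0.05, where 23.3% of all genes were by limma. These were Hbegf at 1.26 (adjusted p = 0.0505, higher in 3 of 3), Areg at 1.06 (0.138), Epgn at 1.06 (0.0156, higher in 3 of 3) and Nrg1 at 0.78 (0.128), or 1.27 per exon length (0.0704). Btc was at -0.48, Ereg at -0.23 and Tgfa at -0.06. Without N mouse 1, which changes the shared estimate of the spread, Epgn was called between Y and E (adjusted p = 0.00545), as it was without N mouse 1 and EY mouse 3 (0.00442, chosen after seeing the data). The interaction, which asks whether both transgenes together differ from the sum of their single effects on the log2 scale, was called for 0 of 7 ligands, against 0.176% of genes. At an unadjusted p below 0.05 it was also 0, by limma, where 13.5% of genes were, and by limma voom. Its estimates reached from -0.78 for Hbegf (95% interval -1.85 to 0.29) to 0.61 for Nrg1 (-0.24 to 1.46), so these intervals leave room for sizeable departures. Between them lay Epgn (0.28), Btc (0.15), Areg (0.10), Ereg (0.08) and Tgfa (-0.24).

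Per exon length the order of the mean levels in N was Ereg (140), Epgn (110), Areg (44.3), Hbegf (37.5), Tgfa (16.8), Btc (10.9) and Nrg1 (4.88 TPM). The steps from Ereg to Epgn and from Btc to Nrg1 held in 5 of 5 N mice. Areg and Hbegf did not differ beyond their spread, at 44.3 ± 20.3 and 37.5 ± 17.0. In E the order began with Ereg (107 ± 26.3) and Epgn (104 ± 22.4), which differed by less than their spread and changed places in 2 of 5 mice, followed by Hbegf (54.3), Areg (34.8), Tgfa (21.9), Btc (5.92) and Nrg1 (4.50).

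In EY the order was Epgn (256), Hbegf (102), Ereg (77.1), Areg (64.8), Tgfa (23.6), Nrg1 (20.04) and Btc (2.51 TPM per exon length). Epgn led in 6 of 6 EY mice, and Hbegf exceeded Ereg, Ereg exceeded Areg and Tgfa exceeded Nrg1 in 4 of 6 each. Y mice had the same order of means, and Epgn led and Nrg1 exceeded Btc in 3 of 3. Btc and Nrg1 thus held opposite places in N and EY, with Btc above Nrg1 in 5 of 5 N mice and Nrg1 above Btc in 6 of 6 EY mice. On the deposited scale Nrg1 is last in each group.

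Summed per exon length, the 7 ligands came in the N, E, Y and EY groups to 365 ± 91.7 (SD, n = 5), 332 ± 74.0 (n = 5), 518 ± 50.1 (n = 3) and 546 ± 94.5 TPM (n = 6). The sums of Y stood above the highest N mouse, at 471, and those of EY overlapped with N through EY mouse 3, at 394. Epgn made up 29.7% ± 5.48 of the sum in N and 47.1% ± 5.62 in EY, with no overlap between 37.8% at most in N and 39.4% at least in EY. The share of Ereg was 38.6% ± 2.67 for N, 32.4% ± 4.39 for E, 17.0% ± 2.33 for Y and 13.8% ± 3.03 for EY mice. Its share was at least 33.9% in N and at most 16.3% in EY. Hbegf held 10.4% ± 3.60 in N and 19.1% ± 4.89 in EY, Nrg1 1.37% ± 0.775 and 3.57% ± 0.941, and Btc 3.15% ± 0.996 and 0.478% ± 0.210. The shares of Areg (11.9% and 11.5%) and Tgfa (4.85% and 4.52%) lay closer than their spread.

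**Figure D3:**
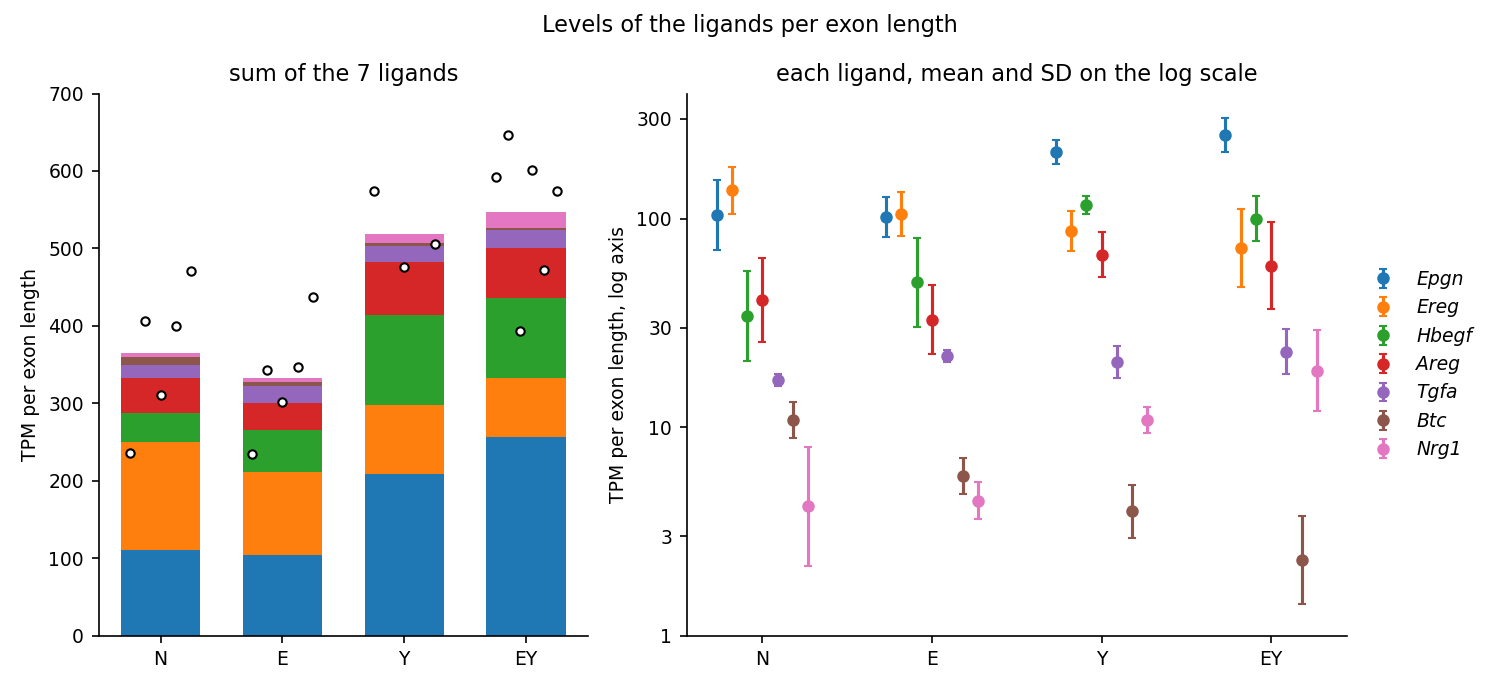
TPM per exon length of the ligands by group, on the left as stacked mean levels with the sum of the 7 ligands in each mouse as open points, and on the right as the mean and SD of each ligand on a log axis. Epgn reaches 256 in EY against 110 in N, while Ereg goes from 140 to 77.1, and Btc and Nrg1 change places.

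The genes Epgn, Ereg, Areg and Btc lie next to each other, in this order, on chromosome 5, while Tgfa lies on chromosome 6, Nrg1 on 8 and Hbegf on 18. The 4 neighbours did not move together. Epgn rose in EY and Btc, at the other end of the row, fell, and Ereg and Areg, between them, had log2 fold changes of -0.88 and 0.57. The ratio of Epgn to Ereg per exon length was 0.775 ± 0.168 (SD, n = 5) for N, 0.991 ± 0.224 (n = 5) for E, 2.40 ± 0.416 (n = 3) for Y and 3.61 ± 1.21 (n = 6) for EY mice. It lay between 0.629 and 0.974 in N and between 2.88 and 6.06 in EY. A ratio of genes within a mouse does not change with the scaling of the mouse. The ratio of Epgn to Btc was 10.4 ± 4.34 for N, 17.5 ± 1.62 for E, 55.8 ± 24.3 for Y and 131 ± 99.98 for EY mice. The genes on either side of the row, Mthfd2l (log2 fold change 0.30 in EY, adjusted p = 0.238) and Parm1 (0.90, adjusted p = 0.0444), were not called. Parm1, the neighbour of Btc, averaged only 0.167 deposited TPM in N and had 1.33 per exon length in EY (adjusted p = 0.0253). In Y, Parm1 had 1.28 (0.0441), or 1.79 per exon length (0.0333), and Mthfd2l had -0.24 (0.549), again without a call.

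**Figure D4:**
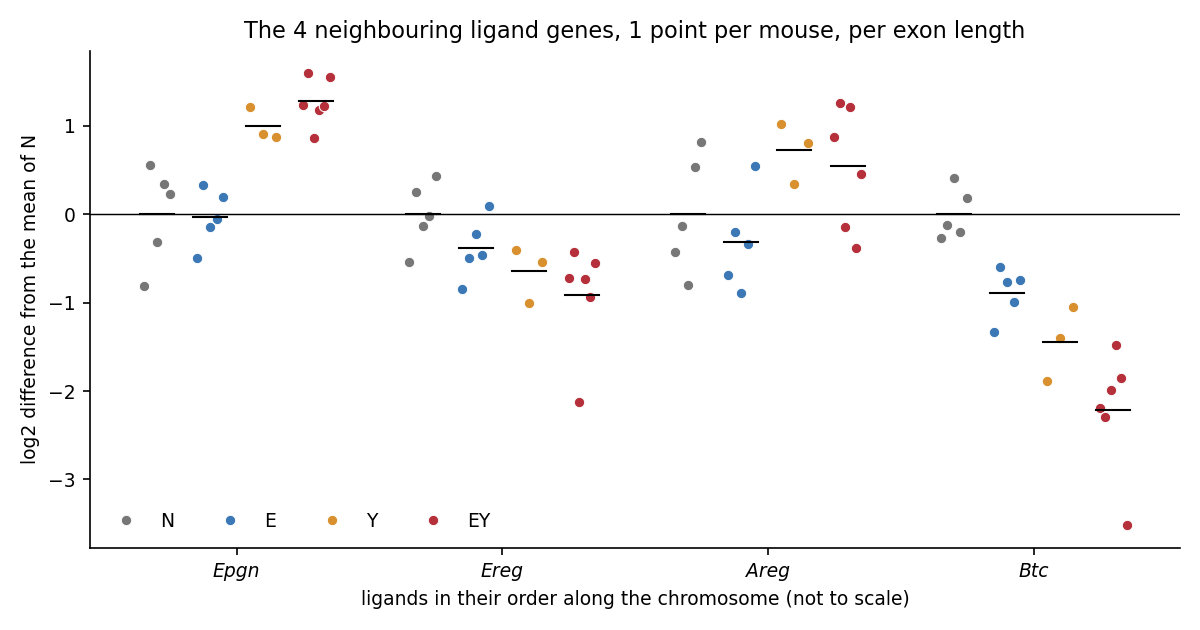
Log2 difference of each mouse from the mean of N for the 4 ligand genes that neighbour each other on chromosome 5, per exon length, with the group means as lines. Epgn lies above and Btc below all N mice in each of the 6 EY mice, and Areg overlaps with N.

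The promoters of Epgn and Btc are printed because these neighbours moved in opposite directions. They are the 250 bases before the start of each gene, 5′ to 3′, from RefSeq in build GRCm38.p6, at chr5:91027267-91027516 on the + strand for Epgn and at chr5:91402995-91403244 on the - strand for Btc. The motifs searched on both strands were GGAATG, which TEAD partners of YAP bind, and TGANTCA, which AP-1 binds, and a match would be in capitals.
Epgn: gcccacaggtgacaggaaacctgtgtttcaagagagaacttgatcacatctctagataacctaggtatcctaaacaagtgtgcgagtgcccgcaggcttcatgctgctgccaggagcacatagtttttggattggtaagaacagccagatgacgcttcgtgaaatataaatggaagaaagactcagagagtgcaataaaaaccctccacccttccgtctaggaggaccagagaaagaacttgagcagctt
Btc: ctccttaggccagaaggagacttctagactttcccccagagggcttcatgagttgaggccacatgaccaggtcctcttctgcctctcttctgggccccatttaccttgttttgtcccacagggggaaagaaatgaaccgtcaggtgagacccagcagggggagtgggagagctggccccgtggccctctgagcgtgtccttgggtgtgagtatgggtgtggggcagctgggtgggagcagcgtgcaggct
Neither promoter holds GGAATG, which 12.6% of 32851 promoters of this length hold, or TGANTCA, which 6.75% hold. This says only that these letters are not in these windows. Of the 4 ligands called in EY, 2 had a promoter that could be shown, and those of Hbegf and Nrg1 are not shown.

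For the ligands called against N, the genes whose pattern over the 19 mice was most like theirs were found among 15604 genes with a mean of at least 1 TPM, by the root mean square difference in log2 units from the mean of N. For Epgn these were Haus2 (0.25), Actr2 (0.28) and Ptk2 (0.29). For Hbegf they were Emp1 (0.42), 1700019L13Rik (0.47) and Gm43545 (0.48), with Emp1 averaging 201 TPM in N against 597 in Y and 575 in EY. For Btc they were Me1 (0.34), Asah2 (0.35) and Nebl (0.36), of which Me1, the cytosolic malic enzyme, averaged 17.5 TPM in N against 5.05 in EY. For Nrg1 on the deposited scale they were Trmt6 (0.23), Mrpl45 (0.25) and Idh3a (0.26). These genes are named for their pattern alone.

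Of the other ligands of the family, Egf, Nrg2 and Nrg4 were tested. Limma called 0 of 3 in EY, where 18.3% of all genes were called, and 0 after scaling, where 15.4% were. Before scaling 2 had an unadjusted p below 0.05, as 48.6% of all genes did. Limma voom called 1, Nrg2, where it called 2303 of 22745 genes higher and 1723 lower. The log2 fold changes of these 3 ligands were -0.29 for Egf, 0.87 for Nrg2 (adjusted p = 0.00278, under the fold limit) and 0.57 for Nrg4. Nrg2 was at no more than 0.0539 TPM in N and 0.0488 in E, and it passed the filter only with its EY mice counted. Its tests, with the call by limma voom, thus rest on a gene let in by the group where it is high. With deposited values this low, the 0.1 TPM added before the logarithm also pulls the 0.87 toward 0. Per exon length Nrg2 averaged 0.786 ± 0.467 TPM (SD, n = 5) for N and 3.73 ± 1.95 (n = 6) for EY mice, and the N mouse with the most, at 1.39, lay below the EY mouse with the least, at 1.65.

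Among the receptors, limma called 0 of 3 in EY, where 18.3% of all genes were called before and 15.4% after scaling. At an unadjusted p below 0.05 there was 1 before scaling (Egfr), where 48.6% of all genes were, and 2 after it, where 45.7% were. Limma voom called 0 with 2 at that level, where it called 2303 of 22745 genes higher and 1723 lower and had 47.4% at that level. Egfr, the receptor of Epgn and Hbegf, had a log2 fold change of 0.92 (adjusted p = 9.06e-05, standard error 0.15, higher in 6 of 6 mice), just under the fold limit, and 0.56 relative to the shift of all genes. Egfr passed the call without EY mouse 3 (1.01, adjusted p = 3.46e-05) and, chosen after seeing the data, without N mice 2 and 3 (1.03, 0.000302) or without N mouse 1 and EY mouse 3 (1.03, 0.000103), with adjusted p between 2.63e-05 and 0.00442 in the fits that keep every mouse or drop more than 1. Per exon length Egfr averaged 23.4 ± 3.42 TPM (SD, n = 5) for N, 24.1 ± 3.45 (n = 5) for E, 31.6 ± 5.35 (n = 3) for Y and 44.0 ± 7.37 (n = 6) for EY mice. Each EY mouse, from 32.5 to 54.5, stood above each N mouse, at 26.4 or less. Erbb2 had a log2 fold change of -0.18 and Erbb3 of 0.25, which became -0.56 (adjusted p = 0.00184) and, with its sign turned, -0.12 after scaling. Erbb3, which binds Nrg1, was at 44.7 ± 10.5 TPM per exon length in N and 51.3 ± 7.20 in EY, a difference within their spread. Erbb4 did not reach the filter and was at no more than 0.174 TPM per exon length in any mouse.

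Of the 8 tested genes for ligand release, 2 were called higher in EY, where 12.6% of all genes were, and 0 lower, where 5.71% were. Their median log2 fold change was 0.39 beside 0.33 over all genes. Rhbdf2, which escorts ADAM17 to the cell surface, had a log2 fold change of 1.49 (adjusted p = 7.73e-05) in EY and 1.24 (adjusted p = 0.00726, and 0.0131 after scaling) in Y. Timp3, an inhibitor of ADAM17, had 2.22 (adjusted p = 0.00491) in EY. The call of Timp3 was lost without N mouse 4 (1.90, adjusted p = 0.0180), N mouse 5 (1.87, 0.0180), EY mouse 3 (1.97, 0.0129), EY mouse 5 (2.13, 0.0111) or EY mouse 6 (2.03, 0.0127). It was also lost after scaling (1.89, 0.0132) and with only the 3 N mice of the same genotype (1.32, 0.0845). With only the groups compared (2.22, 0.0164) and with mouse number as a block (2.03, 0.0197) it was lost too, in a range of 0.00299 to 0.0845 over the fits. Adam17 itself was at 28.6 ± 3.03 TPM per exon length in N and 49.7 ± 5.43 in EY, a log2 fold change of 0.82 (adjusted p = 5.01e-05), under the fold limit. After scaling 1 gene of the list (Rhbdf2) was called higher and 1 (Adam15, -1.17) lower, where 1540 and 1972 of 22745 genes were.

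Of the 11 tested adaptors and turnover genes that work at the receptor, limma and limma voom called 0 in EY, against 18.3% of all genes by limma, and each had 5 at an unadjusted p below 0.05, where 48.6% of all genes were by limma, with the largest log2 fold changes at 0.99 for the adaptor Shc1 and 0.90 for the phosphatase Ptpn11. After scaling Gab1, a docking protein, was called lower (-1.08), as were 1972 of 22745 genes. Shc1, Ptpn11 and Gab1, like Adam17, Adam15, Errfi1, Ier3 and Spry1, were chosen after their values were seen. Of 8 inhibitors of the receptors, 0 were called higher, against 12.6% of all genes, and 1 lower, against 5.71%, Lrig3 (-1.13, adjusted p = 0.000414), and Errfi1, a feedback inhibitor of EGFR, had 0.16, or -0.22 after scaling.

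Of the 19 tested feedback and immediate target genes of the MAPK pathway, 3 were called higher in EY and 3 lower, against 12.6% and 5.71% of all genes, with a median log2 fold change of 0.35 beside 0.33. The phosphatase gene Dusp4 (2.35, adjusted p = 0.000749), Phlda1 (2.18, adjusted p = 6.91e-07) and Ier3 (1.71, adjusted p = 1.36e-07) rose. Egr3 (-3.47, adjusted p = 4.22e-06), Egr1 (-1.60, adjusted p = 2.58e-05) and Spry1 (-1.11, adjusted p = 0.00480), an early response pair and a feedback inhibitor, fell. Dusp4, at a mean of 0.132 TPM in N, lost its call with 1 TPM added (0.75, adjusted p = 9.69e-05) and without N mice 2 and 3, chosen after seeing the data (1.71, 0.0148), the ends of its range of adjusted p over the fits. In Y, Phlda1 (1.48) and Ier3 (1.37) were called higher and 0 of the list lower, against 3.47% and 1.11% of all genes. In E limma and limma voom called 0 of 19, each with 3 at an unadjusted p below 0.05, where limma had 1.2% and 14.8% of all genes. Relative to the shift of all genes 3 were called higher and 5 lower in EY, where 1540 and 1972 of 22745 genes were.

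**Figure D5:**
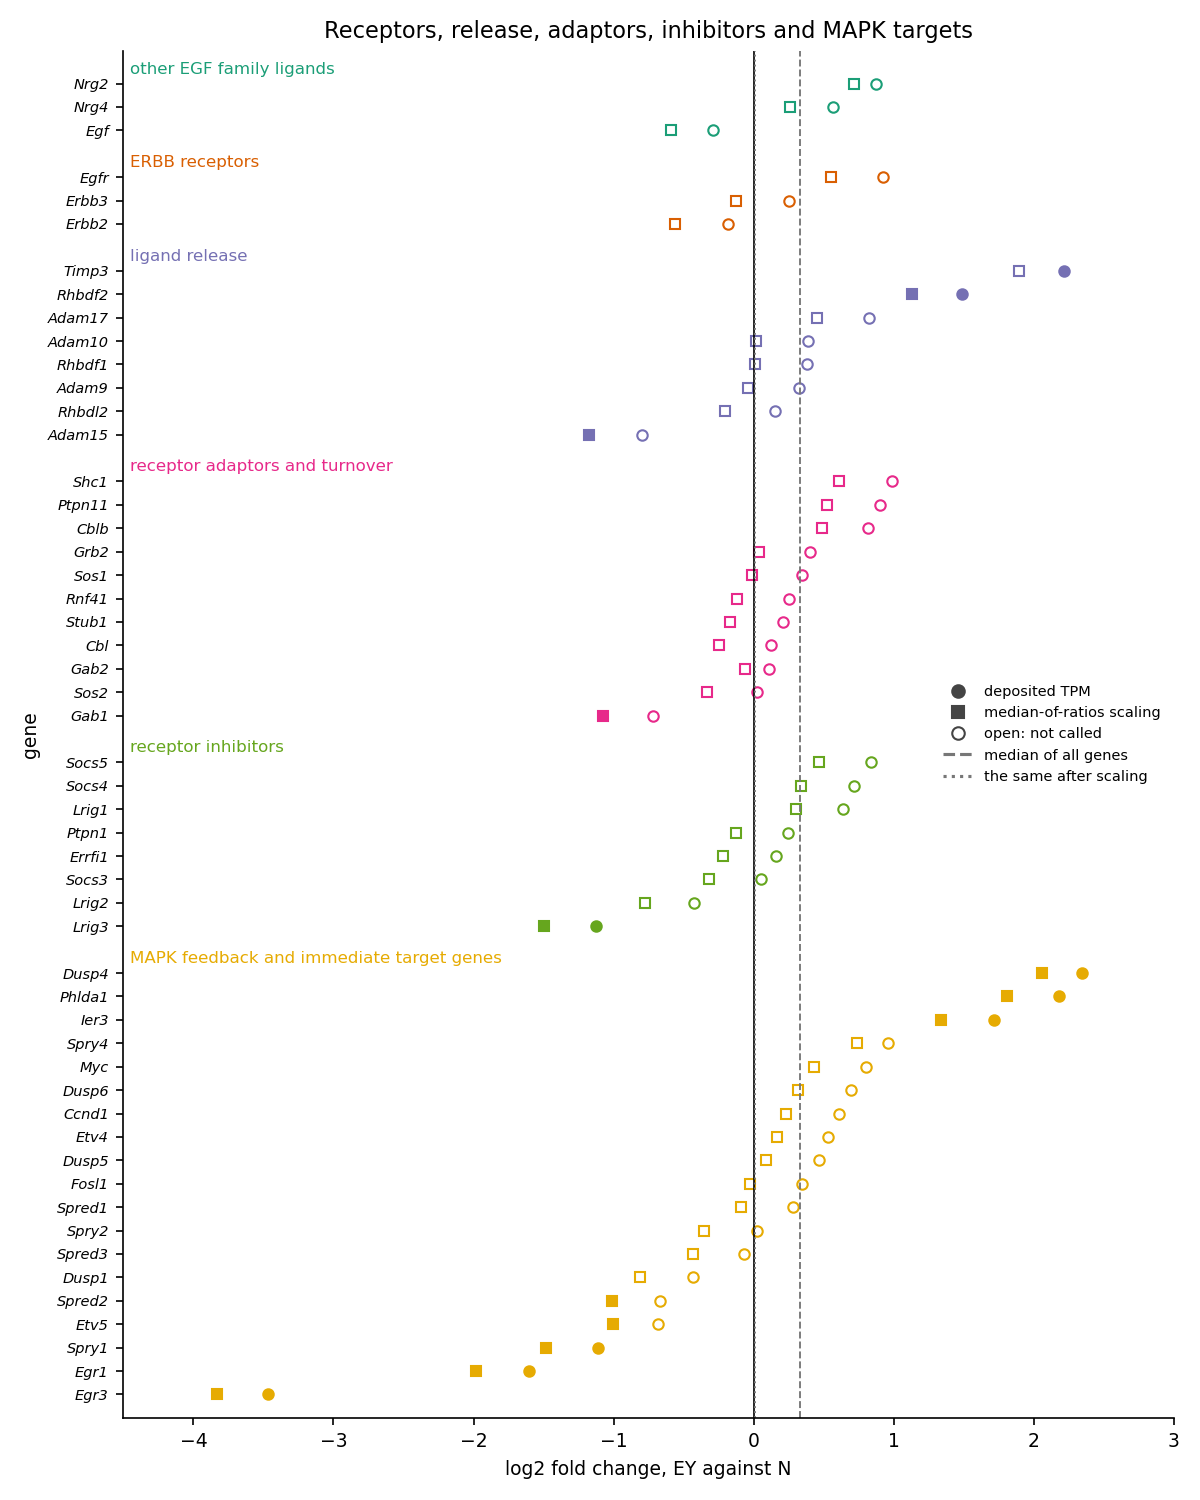
Log2 fold changes between EY and N of other ligands, receptors and genes of ligand release, adaptors, inhibitors and MAPK targets, from deposited TPM (circles) and after median-of-ratios scaling (squares), with the median of all genes as vertical lines. Filled symbols passed the call, among them Dusp4 at 2.35 and Egr3 at -3.47.

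Markers of cell types also moved between the groups. Of 10 markers of differentiating tongue keratinocytes, led by Krt13, 6 were called lower in EY and 0 higher, against 5.71% and 12.6% of all genes, among them Krt13 (-1.75), Krt4 (-1.61) and Krt36 (-4.35). Limma called 0 of 10 in Y, with 7 at an unadjusted p below 0.05, where 28.9% of all genes were, and 0 in E, with 0 at that level. Their levels per exon length summed to 139938 ± 30132 TPM (SD, n = 5) for N, 131488 ± 22057 (n = 5) for E, 90407 ± 28049 (n = 3) for Y and 51416 ± 6448 (n = 6) for EY mice. The EY mice, at 59528 or less, lay below the N mice, at 93104 or more. Of 7 basal markers, led by Krt14, Krt14 was called higher (1.43) and Krt15 lower (-1.27) in EY, and the sum went from 13015 ± 2651 TPM in N to 26780 ± 6337 in EY. Krt14 makes up most of that sum, averaging 6867 TPM in N against 18450 in EY, and the median log2 fold change of the 7 markers was 0.03 beside 0.33 over all genes. Whether the changes of Epgn, Hbegf, Nrg1 and Btc follow from the mix of basal and differentiating cells was not tested.

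Of 8 neutrophil markers, 4 were called higher in EY (S100a8 4.75, S100a9 4.80, Ly6g 2.87 and Mmp8 3.58), against 12.6% of all genes, and 2 in Y (S100a8 5.44 and S100a9 5.89), against 3.47%. Their summed level per exon length was 104, 25.3, 11.6, 12.05 and 15.5 TPM in N, 43.4, 79.3, 60.4, 5.22 and 58.4 TPM in E and 1062, 1276 and 679 TPM in Y, and ranged from 101 to 1290 TPM with a median of 779 in EY. All Y mice and 5 of the EY mice stood above all N mice, and EY mouse 6 did not. The most abundant was S100a9, averaging 17.4 TPM in N against 384 in EY, and keratinocytes under stress express S100a8 and S100a9 too. The defining marker Ly6g was at 0 in each N, E and Y mouse and at a mean of 1.77 TPM in EY. It passed the filter only through EY, and its 2.87 is a distance from the 0.1 TPM added. Its call is therefore no support beside the 12.6% of all genes. Mpo averaged 0.0314 TPM in N against 0.188 in EY. Whether neutrophils contribute to the levels of the ligands was not tested.

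Other lists held called genes in EY, where 18.3% of all genes were called, among them Dcn (-2.36) of 7 fibroblast markers, Tie1 (1.72) of 4 endothelial and Cd207 (-1.86) of 7 macrophage and dendritic cell markers. The medians of these 3 lists were 0.45, 0.75 and 0.38, so Dcn and Cd207 do not stand for their lists. Limma called 0 of 7 skeletal muscle, 0 of 5 nerve, 0 of 8 T cell and innate lymphoid, 0 of 5 mast cell and basophil, 0 of 4 taste cell and 0 of 1 salivary markers and not Ptprc. In these lists 1, 0, 5, 1, 1, 0 and 0 markers had an unadjusted p below 0.05, where 48.6% of all genes did. Their median log2 fold changes were 1.77, -0.53, 1.27, -0.06, 0.41, -1.52 and 0.73 beside 0.33 over all genes, and the T cell and innate lymphoid list summed to 6.49 ± 3.40 TPM per exon length (SD, n = 5) for N and 14.8 ± 3.09 (n = 6) for EY mice. The taste list summed to 13.7 ± 12.1 TPM per exon length (SD, n = 5) for N and 67.9 ± 60.7 (n = 6) for EY mice, through Krt8 (3.04, adjusted p = 0.0231), at 5.07 and 64.0 TPM. The muscle sum was highest in EY mouse 3, at 1923 TPM per exon length, and salivary markers were at 42.5 and 86.4 TPM in N mice 2 and 3. N mouse 1 stood apart in leukocyte markers. Its macrophage and dendritic cell sum was 264 TPM per exon length, against 101 or less in the other N mice. Ptprc was at 5.19 in this mouse, against 2.26 or less in the others of N. Without N mice 2 and 3, or without N mouse 1 and EY mouse 3, settings chosen after seeing the data, Hbegf, Epgn, Nrg1 and Btc were called in EY against N as well.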

How the data were processed

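RNA with poly(A) tails from the tongue epithelium of 19 mice (N n = 5, E n = 5, Y n = 3, EY n = 6) was sequenced for the authors. Per the labels they aligned reads with STAR 2.7.9 to GRCm39, sorted them with SAMtools 1.7, counted them with HTSeq 0.13.5 and tested with DESeq2 1.34.0. The deposited values are TPM, 1 table for all mice. Whole reads were recovered for 24680 of 24680 genes above 0 from the steps between TPM values (tolerance 0.001 of a read), and they gave 8269674 to 11007304 reads per mouse. The gene lengths that the TPM imply were compared with GENCODE M21 (GRCm38), and TPM per exon length were recomputed for 23811 genes, which hold at least 98.05% of the reads of each mouse.

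Differences were tested with limma 3.58.1 (R 4.3.3; lmFit, eBayes with trend) on log2 of TPM plus 0.1, for the 22745 genes that reached 0.1 TPM in 3 mice or more. The model had 4 group means over all 19 mice, which share 1 estimate of the spread, and 7 comparisons, each with Benjamini-Hochberg adjustment over all genes. A call needed an adjusted p under 0.01 and a log2 fold change beyond 1 in either direction. The fit was tested on simulated data. Intervals are 95% confidence intervals. Alternatives were pseudocounts of 1 and 0.01 TPM, a filter at 1 TPM, no filter, median-of-ratios scaling, only the 3 N mice with Krt14-CreERT/LSL-rtTA, only the groups compared, mouse number as a block, limma voom on the recovered reads, and leaving out each mouse in turn. Those chosen after seeing the data were TPM per exon length, leaving out N mice 2 and 3, and leaving out N mouse 1 and EY mouse 3.

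The 7 ligands and the lists of pathway genes and cell type markers were chosen with earlier results of these data known. Every ligand is reported in every comparison. Of each list of pathway genes and label genes, the 2 largest rises and the 2 largest falls among genes called in EY against N are named, along with all ERBB receptors. For each ligand called against N the 3 genes with the most similar pattern are named. Genes named outside these rules were chosen after their values were seen. Tables and plots were made in Python 3.11.15 with pandas 2.3.3, numpy 2.4.6 and, for plots, matplotlib 3.10.9. The transgenes have no row in the table, and the strand setting of the counts is not stated. Exons of Tgfa and Ereg overlap those of Gm43917 (20 to 54 reads per mouse) and Gm19610 (36 to 157 reads), which were not called in any comparison. Exons of Nrg1 overlap those of Gm26578, which has no row in the table. Reads from these overlaps could not be assigned here. Protein sequences were not used here.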

Additional observations from a re-analysis of the deposited data

How the results depend on the processing

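Over 31 other settings, 19 of which leave out 1 mouse, no ligand called in a comparison changed its direction. Of the values of single ligands, 39 lost the call and 11 gained it. The others kept their side of the threshold, and 3 of these, which were not called, changed sign by more than their standard error (Areg in E to 0.15 with the 3 N mice, Tgfa between EY and E to -0.17 after median-of-ratios scaling, and Nrg1 in E to 0.26 without N mice 2 and 3). Between EY and N, 3779 to 4212 genes and 4 to 5 ligands were called when leaving out 1 mouse, and 2905 to 4237 genes and 3 to 5 ligands under the other settings.

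The number of ligands called between Y and N, 2 as reported, was 1 with a pseudocount of 1 TPM or 0.01 TPM, without a filter, after median-of-ratios scaling and with only the 3 N mice of the same genotype. It was 0 with only the groups compared, without N mice 2 and 3 and without N mouse 1 and EY mouse 3. It was 3 with the filter at 1 TPM and with mouse number as a block, both with Epgn, and ran from 0 to 3 when leaving out 1 mouse. The genes called there were 656 with the 3 N mice and 555 with only the groups compared, and 639 to 1039 when leaving out 1 mouse. With only the groups compared, which leaves fewer mice to estimate the spread, 145 genes were called between E and N, 198 between EY and Y and 187 between Y and E. Leaving out 1 mouse gave 200 to 496 genes between EY and Y, 266 to 577 between Y and E and 28 to 73 for the interaction. The interaction had 118 genes with limma voom. Between EY and E, 1 ligand was called with a pseudocount of 1 TPM and 2 to 4 when leaving out 1 mouse. Between Y and E, 1 ligand was called without N mouse 1 and EY mouse 3 and 0 to 1 when leaving out 1 mouse. Except where fewer mice are named, the cause was not tested.

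Mice of different groups share only a number, and the correlation of their deviations was -0.04 to 0.08 for the same number and -0.20 to 0.08 for others. With mouse number as a block, 3989 genes and 4 ligands were called between EY and N, 861 and 3 between Y and N (Epgn at 1.12, adjusted p = 0.00953) and 2814 and 2 between EY and E. Btc between EY and E (-0.95, 0.00315) and Timp3 between EY and N (2.03, 0.0197) were not called there.

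Nrg1 does not pass a filter at 1 TPM, and the interaction cannot be run with only the groups compared. Depth limits Btc most, with 16 to 62 reads per EY mouse.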
